A study of Arabidopsis thaliana with 18 samples.

Results

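An alternative 3′ splice site, or acceptor, lets the same donor be joined to either of 2 intron ends, so that the stretch between them is kept in the transcript or removed with the intron. The events described here are the alternative acceptors of Arabidopsis thaliana leaves whose 2 acceptors lie more than 60 nt apart. They were chosen from event names alone: an event was taken where its name marks it as an alternative acceptor (Alt3), where all 18 deposited lists hold it, and where the 2 introns of its Col-0 coordinates differ in length by over 60 nt. This gave 700 events in 544 genes, out of 1974 Alt3 events and 5403 events of all types common to the lists. The rule uses no measured value.

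The study sequenced polyA RNA from the first leaf of 9 kinds of plants: the reference accession Col-0, 4 further accessions (Kro-0, Bur-0, Ler-1 and C24), and the F1 hybrids Col-0 x Kro-0, Col-0 x Bur-0, Col-0 x Ler-1 and Col-0 x C24. All plants were 14 days old and had been kept on Murashige and Skoog medium with 1% sucrose, under white light of 100 µmol m-2 s-1 for 16 h a day at 22 °C, with 8 h of darkness at 18 °C. None carried a transgene or received a treatment, per the labels. Each group had 2 libraries, which the series' design text calls biological replicates, and the labels do not give the direction of the crosses or the number of plants behind a library.

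The spliceosome finds an acceptor through a branch point, a run of pyrimidines bound by the large subunit of U2AF, and the AG that closes the intron, whose neighbourhood is read by the small subunit of U2AF. A distant acceptor competes with the usual acceptor for the same donor, and proteins such as the serine/arginine-rich (SR) factors and polypyrimidine tract-binding proteins shift the balance. In plants a proximal acceptor inside an intron often brings a premature stop codon into the transcript, which can mark it for nonsense-mediated decay, while a distal acceptor can remove part of an exon or a whole exon.

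Each event is given as its PSI in percent: the reads spliced to the proximal acceptor (the shorter intron, which keeps the stretch) divided by the reads of both acceptors plus 1. An event with all of its reads at the proximal acceptor therefore lies a little below 100%. Means are over the 2 libraries of a group, with their SD (n = 2). Differences between groups were tested by the edgeR quasi-likelihood test over all events for which every library of the comparison had 10 reads or more. An event counts as called where its adjusted p (Benjamini-Hochberg, over all events tested) was under 0.05.

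Sequences around acceptors are shown first for the members in which the reference lacks AG at an acceptor, since those acceptors had no read in Col-0, and later beside 4 members with large differences between accessions. Each is a 30-base window of the TAIR10.1 RefSeq genome, a Col-0 sequence, written 5′ to 3′ on the strand of the event, and the capitals mark the last 2 bases of the intron. Of the 700 members, 695 had AG at the proximal and 698 had AG at the distal acceptor. The 7 acceptors without AG in the reference are these:
MBD7 proximal, chr5:24095557-24095586 (minus strand): aacaactgaggtcggttaaatgtGGgatgt
AT3G26080 proximal, chr3:9529837-9529866 (plus strand): acgaaagtttgagactttgtcacATatatg
CJD1 proximal, chr1:2750926-2750955 (minus strand): cttcttccttcataaacattgtcAAttgaa
VLN3 proximal, chr3:21250650-21250679 (minus strand): ttcttttggttctctgattatgtGGtcatg
FUG1 proximal, chr1:5888671-5888700 (plus strand): attgcaaacgtcattgcacacaaACgtcat
MEE4 distal, chr1:1290000-1290029 (minus strand): ggctgatgtaatgaaagatgttcCGggatg
AT1G70620 distal, chr1:26627811-26627840 (plus strand): cttaaacttgttactctgtttgcACgtaaa
The AG-ending partners of the pair with the highest PSI outside Col-0, for comparison, read as follows:
MBD7 distal, chr5:24095465-24095494 (minus strand): aaaccgttagtattgttctttgcAGtatta
AT3G26080 distal, chr3:9529969-9529998 (plus strand): ttagcaaactacaatgttttcatAGgtaac

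All 5 proximal acceptors without AG had 0 proximal reads there, against 25 of the 695 proximal acceptors with AG (3.6%). Both distal acceptors without AG had 0 distal reads, against 51 of 698 (7.31%). Among the Alt3 events with acceptors 60 nt apart or less, the same was seen at 16 of 17 proximal and 6 of 6 distal acceptors without AG, against 2.47% and 3.31% of those with AG. The genome sequences of the other accessions were not used here, so the letters at these acceptors in the plants that did use them are not given. These events were singled out by their reference letters, after the letters of all members had been read. Each of the member acceptors without AG had reads in at least 1 other accession, and the rule by which events were listed is not given. Such an acceptor may be listed only because another accession used it. The lack of Col-0 reads may thus follow from the listing, and the shares above are a description.

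In MBD7 (AT5G59800), a methyl-CpG-binding domain protein, the acceptors lie 92 nt apart in the coding span. Col-0 had 0 of 30 reads at the proximal acceptor, which allows up to 10%, and Bur-0 had a PSI of 36.8% and 41.2%. The hybrid Col-0 x Bur-0 had 16.7% and 11.8%, and the libraries of all other groups had 0. Both Bur-0 libraries thus lay above both hybrid libraries, which lay above the rest, and Bur-0 differed from Col-0 with an adjusted p of 0.012 (edgeR), which reached up to 0.098 when any Bur-0 or Col-0 library was left out. AT3G26080, a fibrillin-family protein of plastid lipid bodies, showed the same order with Ler-1 in place of Bur-0. Ler-1 had 23.1% and 31.8% at an acceptor 132 nt away, on 33 reads in all. The hybrid Col-0 x Ler-1 had 6.06% and 7.32%. Every other group had 0 reads there, Col-0 with 0 of 210, which allows up to 1.43% (edgeR adjusted p for Ler-1 = 0.00033). The proximal acceptors of CJD1 (AT1G08640), a chloroplast J-like protein, and VLN3 (AT3G57410), an actin-bundling villin, were used in C24 and its hybrid alone among the groups. Their PSI in C24 was 2.76% ± 1.37 (8 of 299 reads) and 4.55% ± 0.546 (7 of 151 reads), with edgeR adjusted p values of 0.011 and 0.015, and Col-0 had 0 of 733 and 0 of 377 reads. Each of these calls held in 8 of 12 alternatives, with adjusted p values of up to 0.16 and 0.14.

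MEE4 (AT1G04630), a subunit of mitochondrial complex I, lacks AG at its distal acceptor 61 nt away, just above the distance threshold. Col-0 had 621 of 621 reads at the proximal acceptor (99.7% in each library), and Bur-0 had 298 of 325 (92.5% and 89.6%). The hybrid lay between them at 97.4% and 96.2%, and the edgeR adjusted p for Bur-0 was 8.5e-05. In FUG1 (AT1G17220), a plastid translation initiation factor, Col-0 had 0 of 2946 proximal reads, which allows 0.102%. The other accessions had means of 0.219% to 0.321%, and no difference among accessions passed the test (edgeR adjusted p = 0.23). AT1G70620, annotated as cyclin-like, gave 9 of 9 Col-0 reads at the proximal acceptor. Bur-0, C24, Kro-0 and Ler-1 had 0 of 76, 0 of 67, 0 of 113 and 0 of 123. Its hybrids had means of 2.44%, 4.41%, 6.9% and 4.0% (Bur-0, C24, Kro-0 and Ler-1), far below the middle of the parents in PSI. That middle gives the 9 reads of Col-0 the same weight as the 67 to 123 reads of the other parent. The event was not tested, because Col-0 had under 10 reads.

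The 700 events had acceptors 61 to 2766 nt apart, with a median of 189 nt and quartiles of 121 and 324.5 nt. The distance was a multiple of 3 in 258 (36.9%). The longer intron had a median of 402 nt and the shorter one of 161.5 nt. Of the genes, 449 had 1 member and 95 had more, up to 7 in AT1G52510, an alpha/beta-hydrolase gene. Members of a gene often share an intron and therefore reads, so members are not independent of each other: the 700 events used 628 distinct longer and 649 distinct shorter introns.

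The members were of 2 kinds in equal number. In 350 (50%) an annotated intron lies inside the stretch and ends at the distal acceptor, so the longer form skips an annotated exon as well as changing the acceptor. Of these, 297 (84.9%) share their longer intron with a skipped-exon event in the same lists. Where the stretch holds a single annotated intron (283 members), the exon that is skipped had a median length of 72 nt, and its length was a multiple of 3 in 88. In the other 350 no annotated intron lies inside the stretch in that way, and the acceptors were closer, with a median of 127.5 nt against 264.5 nt. In AT3G61690, a nucleotidyltransferase-like gene with the largest distance (2766 nt), the skipped exon was 2333 nt long and the PSI was 94.7% over all groups.

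Both introns of an event were annotated in TAIR10.1 for 254 members, only the shorter for 234, only the longer for 158 and neither for 54. The stretch lay within the coding span of its gene in 540 members, on the 5′ side of it in 97, on the 3′ side in 20 and across an end of it in 37, while 6 had no coding transcript. Proximal acceptors ended in CAG in 49.7%, TAG in 40.4% and AAG in 8.43%. Distal acceptors had CAG more often, with 68.3%, against 25.6% for TAG and 5.43% for AAG. The median share of pyrimidines in the 20 bases before the AG was 65% for both. Among Alt3 events with closer acceptors, CAG stood at 44.7% of proximal and 62.5% of distal acceptors.

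A minority of the members was used at a middle level. Among the 598 members with at least 10 reads in each of the 18 libraries, the mean PSI over the 9 groups was under 5% in 140, from 5% to 20% in 93, from 20% to 80% in 83, from 80% to 95% in 125 and over 95% in 157. Among the accessions the median over members was 70.4% in Col-0 and 67.9% in Bur-0, followed by Ler-1 (64.7%), C24 (63.1%) and Kro-0 (62.4%), while with at least 20 reads Bur-0 (73.4%) lay above Col-0 (72.4%). It was 71.8%, 69.6%, 68.1% and 68.5% in the hybrids of Col-0 with Bur-0, C24, Kro-0 and Ler-1. These medians fall where members are sparse, so a few members can move them, and their order was not tested. The quartiles lay closer together: over the accessions the lower ran from 4.57% to 6.47% and the upper from 95.2% to 96.9%. The median difference between the 2 libraries of a group was 1.44 to 1.98 percentage points per member.

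The level went with what the kept stretch holds. Without a skipped exon, the median PSI was 4.33% for the 138 members whose stretch, read in the annotated frame, holds a stop codon, and 93.0% for the 78 without one. Where an exon is skipped the medians were 10.8% (32 members) and 95.5% (172 members). The other 178 could not be read in frame, mostly because they reach outside the coding span. Annotation moved with the level too: without a skipped exon, the median was 3.65% where only the longer intron is annotated (126 members), 97.4% where only the shorter is (66 members) and 46.3% where both are (86 members). Stop codon and annotation are linked, since the frame was read in annotated transcripts. Where the shorter intron belongs to an annotated coding transcript, the stretch is mostly annotated coding sequence, which holds no stop inside. The difference by stop codon was not separated from that by annotation. These groups of members were compared as a description, without a test.

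**Figure D1:**
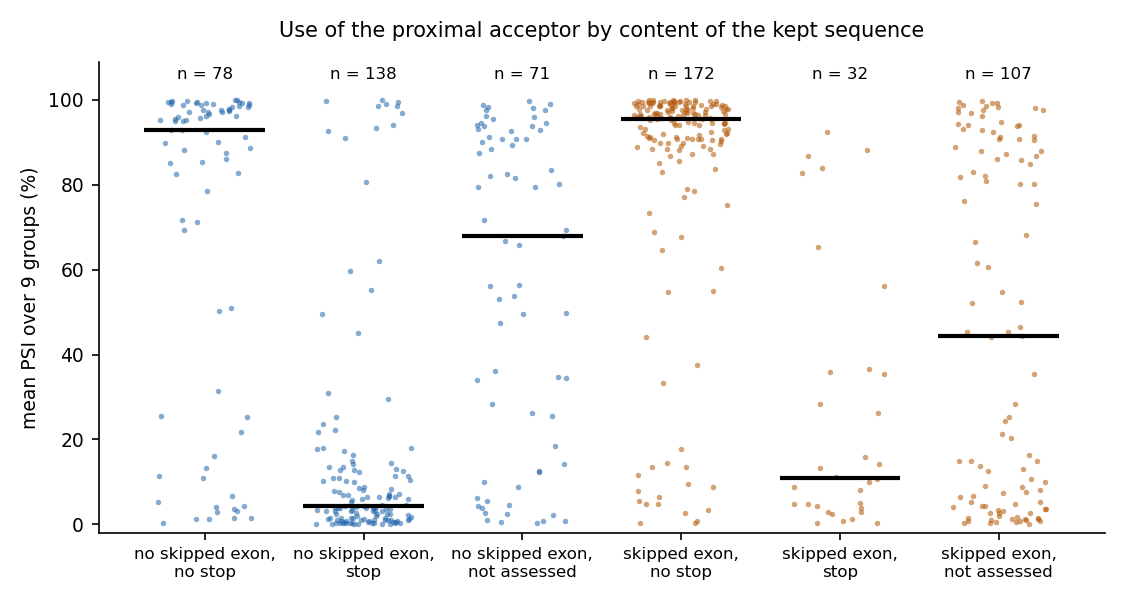
Mean PSI over the 9 groups, in percent, for each of the 598 members with at least 10 reads in every library (points, spread sideways to be seen), by whether the longer form skips an annotated exon and whether the kept stretch holds a stop codon in the annotated frame; black lines are medians. Most members with a stop gather near 0 and most without one near 100, in both kinds of event, with exceptions in each.

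Of the 8 most-read members whose mean PSI over the groups lay between 20% and 80%, 7 were called in no comparison with Col-0. Each of these comparisons called 5.0% to 11.2% of the members tested, so the count does not set the 8 apart. Tested for any difference among the 5 accessions, 18 of the 83 members at this level were called (21.7%), beside 138 of 599 members (23%). DYL1 (AT1G28330), a dormancy-associated protein, had acceptors 278 nt apart and a PSI of 48.2% and 60% in Col-0, with library values from 48.0% to 64.6% over the accessions. XBAT35 (AT3G23280), a RING-type ubiquitin ligase with ankyrin repeats, skipped a 72-nt exon and had 56.2% and 59.4% in Col-0, with 42.0% in C24 replicate 2 as its lowest library. AT5G53850, a dehalogenase-like enzyme gene with a skipped exon of 48 nt, had 41.6% and 41.4% in Col-0. The Ler-1 libraries of AT5G53850 had 41.5% and 40.8%, and those of Bur-0 43.7% and 44.0%. AT5G18230, a NOT-family subunit of the CCR4-NOT complex, skipped an exon of 6 nt and had 27.5% and 35.5% in Col-0.

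BTR1L (AT5G04430), an RNA-binding protein that binds tomato mosaic virus RNA, had 33.2% and 31.3% in Col-0 at acceptors 63 nt apart. UAP56a (AT5G11170), an RNA helicase of mRNA export, had 31.3% and 30.4%, and ORG1 (AT5G53450) had 79.4% and 85.6%. VAB2 (AT4G38510), a subunit of the vacuolar proton pump, was the exception: its Col-0 libraries had 48.5% and 62.7%, its Ler-1 libraries 78.1% and 81.4%, and the edgeR adjusted p was 0.0036. That call was lost without Col-0 replicate 1 or Ler-1 replicate 2, with an adjusted p of up to 0.1. The members just above the threshold besides MEE4 were PnsB2 (61 nt, mean PSI 99.2%) and AT3G21390 (62 nt, 3.02%). The events just under it were TIC21, LHCA2 and PGLCT, all at 60 nt, with 0.21%, 99.99% and 97.6%.

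The libraries held 178376 to 349274 reads over the members, out of 3186952 to 6134488 over all listed events. The median was 55 to 107.5 reads per member, and 629 to 676 members had at least 10 reads. Leaf genes were read as labelled: events of RBCS1A, the small subunit of Rubisco, and of the carbonic anhydrase CA1 took 13.7% to 24.4% and 4.18% to 5.73% of the reads. FAMA, a guard cell factor, had 79 to 275 reads and ATML1, an epidermal factor, 63 to 153. The markers of phloem, root, flower, seed and trichome chosen for the check have no event in the lists and so no value. A leaf is a mixture of cell types, and fewer cells of a type and less RNA per cell cannot be told apart in these libraries.

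The comparisons of each accession with Col-0 asked where acceptor use had diverged between the parents of each cross. They share the 2 Col-0 libraries, so they are not independent of each other. In Bur-0, 70 of 624 members tested were called (11.2%, in 62 genes), 42 with more and 28 with less use of the proximal acceptor; over all events tested, 8.95% were called (4.56% higher and 4.4% lower). In C24, 36 of 617 were called (5.83%), 18 in each direction, with 6.02% over all events (2.6% higher and 3.42% lower). In Kro-0, 31 of 620 were called (5.0%), 16 higher and 15 lower, with 5.19% over all events (1.92% and 3.28%). In Ler-1, 45 of 634 were called (7.1%), 22 higher and 23 lower, with 6.97% over all events (2.8% and 4.17%). The shares of members called thus lay near those of all events in C24, Kro-0 and Ler-1.

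Called members with a difference of at least 10 points numbered 28 (Bur-0), 20 (C24), 14 (Kro-0) and 15 (Ler-1). The median size of a called difference was 7.96, 11.1, 8.66 and 5.68 points, in the same order. Members that skip an exon and members that do not were called at like shares: 32 of 318 and 38 of 306 (Bur-0), 18 of 318 and 18 of 299 (C24), 14 of 320 and 17 of 300 (Kro-0), 26 of 324 and 19 of 310 (Ler-1). Alt3 events with acceptors 13 to 60 nt apart were called in 7.4%, 4.64%, 4.14% and 6.33%, and those with 12 nt or less in 5.49%, 1.86%, 2.15% and 3.96%. These counts lean on single libraries: leaving out Col-0 replicate 1 or 2 gave 32 and 46 calls for Bur-0, 16 and 16 for C24, 17 and 20 for Kro-0, and 17 and 25 for Ler-1. Leaving out replicate 1 or 2 of the accession gave 31 and 31, 18 and 18, 17 and 18, and 18 and 16.

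**Figure D2:**
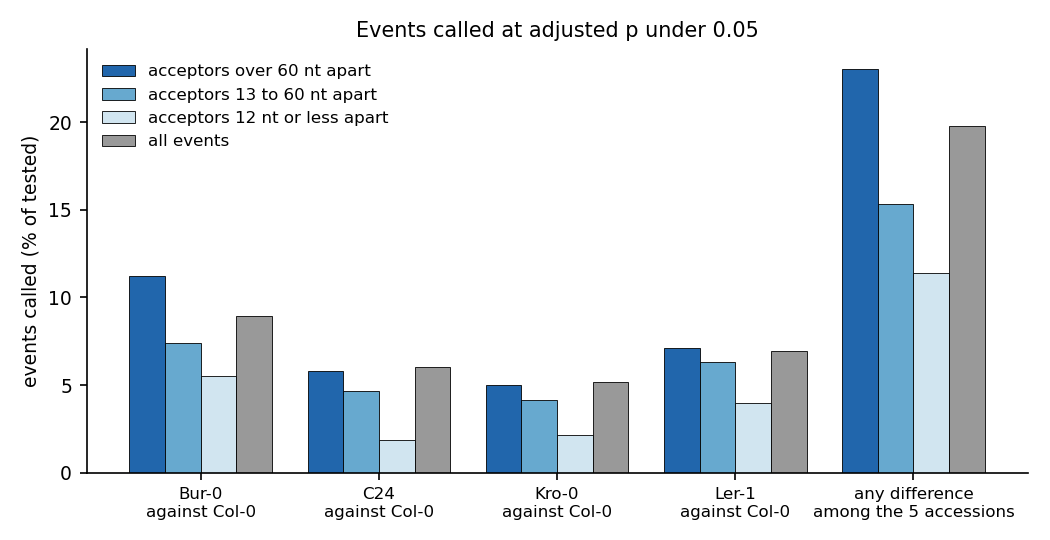
Share of events called at an adjusted p under 0.05 (edgeR), in percent of those tested, for Alt3 events in 3 classes of acceptor distance and for all events, in the 4 comparisons with Col-0 and in the test of any difference among the 5 accessions. Members (dark blue) lie above the closer acceptors in each comparison. They lie above all events in Bur-0 (11.2% against 8.95%) and among the 5 accessions (23% against 19.8%), and slightly below them in C24 and Kro-0.

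In Bur-0 the largest differences among called members were in ATG8E, ATMAK3 and AT3G26920. ATMAK3 (AT2G38130), an N-acetyltransferase, has 3 members on the 5′ side of its coding span. At the pair 129 nt apart (chr2:15980235-15980363) Col-0 had 0 of 140 reads at the proximal acceptor, Bur-0 had 91.7% and 92.0%, and C24 had 85.7% and 87.5% (13 of 13 reads, too few for the test). Kro-0, Ler-1 and their hybrids had 0. The hybrid with Bur-0 had 40.7% and 31.1%, the hybrid with C24 38.7% and 13.9%, and the edgeR adjusted p for Bur-0 was 7.3e-08. At its pair 186 nt apart, which shares the proximal acceptor, Bur-0 had 26.5% and 32.9% and C24 15.4% and 26.9%, against 0 of 95 reads in Col-0 (edgeR adjusted p of 0.00026 and 0.0053). The call in C24 was lost without C24 replicate 2 or either Col-0 library, with an adjusted p of up to 0.069. At the third pair, 326 nt apart, the proximal acceptor lay upstream of both, and it fell from the 99.1% and 99.3% of Col-0 to 77.9% and 86.7% in Bur-0 and to 67.3% and 48.1% in C24 (edgeR adjusted p of 0.0002 and 2.2e-06).

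AT1G10657, an uncharacterized gene, kept 72 nt of coding sequence with no stop. Its Col-0 libraries had a PSI of 8.33% and 10.1%, those of Bur-0 53.8% and 51.7%, and those of C24 59.4% and 48.9%. Kro-0 and Ler-1 had 6.98% to 24%, below both of these accessions in every library (edgeR adjusted p of 0.00036 for Bur-0 and 0.00015 for C24). AT5G09880, annotated as a CC1-like splicing factor, moved at 2 members with the same distal acceptor. At the pair 156 nt apart Col-0 had 73.5% and 83.5% and Bur-0 24.4% and 24.2%; at the pair 485 nt apart Col-0 had 46.3% and 59.8% and Bur-0 77.9% and 75.8% (edgeR adjusted p of 1.2e-06 and 0.0042); the latter call was lost without Bur-0 replicate 1 or Col-0 replicate 1, with an adjusted p of up to 0.1 over the alternatives. All libraries of C24, Kro-0 and Ler-1 stayed at 71.2% or more at the former. ATG8E (AT2G45170), an autophagy protein, had 99.7% and 99.6% in Col-0 and 0% and 13.9% in Bur-0 at acceptors 170 nt apart (edgeR adjusted p = 5.9e-09). It is among 7 members called in Bur-0 that share an intron with a called event of acceptors 60 nt apart or less, so its reads of that intron count in both; C24, Kro-0 and Ler-1 had 1 such member each.

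AT5G37380, a DnaJ-domain chaperone, had 57.1% and 57.7% in Col-0 and 0% and 6.25% in Bur-0 (edgeR adjusted p = 0.00067). AT3G26920, an F-box-like FBD protein, fell from 93.1% and 93.0% to 0% and 5.26% in Bur-0 (edgeR adjusted p = 2.8e-06); Kro-0 had 0 of 13 reads there and was not tested. AT1G52510 fell from 96.7% and 94.4% to 40.9% and 60.5% at acceptors 842 nt apart on the 3′ side of its coding span. AT1G79520, a cation efflux protein, fell from 26.4% and 30.4% to 5.41% and 3.33%, and AT4G17310 from 70.4% and 35.5% to 14.8% and 11.3%. Rises were also called in AT3G59210, an F-box protein (10% and 30.4% to 61.1% and 70.8%), AT1G36070, a WD40 protein (11.8% and 10.9% to 44.8% and 38.5%), and MPK18, a mitogen-activated protein kinase (10.6% and 13% to 21.7% and 36.0%). The edgeR adjusted p of these 6 lay between 0.00093 and 0.035. All but that of AT1G52510 were lost without one or another Bur-0 or Col-0 library, with adjusted p values of up to 0.4 over the alternatives.

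In C24 the largest rise was that of AT1G10657, given above, and the largest fall was in MIR162a, followed by CAT3, ATMAK3 and AT3G05160. CAT3 (AT5G36940) here is the cationic amino acid transporter, in which the longer form skips an exon of 76 nt. The acceptors of CAT3 and AT3G05160 in the reference are these, with the last 2 bases of the intron in capitals:
CAT3 proximal, chr5:14593792-14593821 (plus strand): acttagaactctttttgttctacAGgcttc
CAT3 distal, chr5:14593956-14593985 (plus strand): tacatttgttttgctaatgttttAGagctg
AT3G05160 proximal, chr3:1455557-1455586 (minus strand): atcaatatttaaatattcgcaaaAGgtccc
AT3G05160 distal, chr3:1455401-1455430 (minus strand): ccaatttttatttctggttttatAGcttct
CAT3 had 97.6% and 98.1% in Col-0 and 47.8% and 62.9% in C24, with the hybrid between them at 72.9% and 83.3%. All other libraries had 97.2% or more, and the edgeR adjusted p was 8.8e-05. AT3G05160, a major facilitator transporter, skips a 66-nt exon in the longer form of the pair 156 nt apart. C24 had 56.8% and 65.6% and its hybrid 71.5% and 76.8%, while the libraries of all other groups had 99.1% or more (edgeR adjusted p = 3.9e-07).

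A further member of AT3G05160, 489 nt apart, differed between accessions in both directions. Col-0 had 89.8% and 92.9% and C24 stayed beside it at 90.9% and 90.5%. Bur-0 had 99.6% and 98.1% and Kro-0 99.4% and 99.5%, both above every Col-0 library (edgeR adjusted p of 0.003 and 0.00083). Ler-1 had 77.8% and 75.3%, below every other library of an accession (edgeR adjusted p = 0.021, lost without any of the Ler-1 or Col-0 libraries and up to 0.4 over the alternatives). The call in Bur-0 was lost without replicate 1 of Bur-0 or of Col-0, with up to 0.072. AT1G10660, next to AT1G10657 by number and uncharacterized, had 31.9% and 30.2% in Col-0 and 0 of 112 reads in C24, which allows 2.68% (edgeR adjusted p = 3.7e-05). AT2G18750, a calmodulin-binding protein, had 0 of 136 reads in Col-0 and 29.4% and 26.1% in C24 (edgeR adjusted p = 0.00093). MIR162a (AT5G08185), the precursor of a microRNA that targets DCL1, spliced to its proximal acceptor in 57.1% and 63.2% of Col-0 and in 0% and 26.7% of C24 reads, on 31 and 34 reads (edgeR adjusted p = 0.021).

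In C24 5 further members named by size had edgeR adjusted p values from 0.0033 to 0.04. AT2G26210, an ankyrin repeat protein, fell from 66.9% and 60.5% to 36.6% and 25%. AT4G16800, a crotonase family protein by annotation, fell from 97.7% and 97.5% to 73.9% and 55.6%. AT5G48220 rose from 6.21% and 6.25% to 23.7% and 18.1%, AT4G25290, a DNA photolyase, from 1.63% and 0.699% to 12.1% and 11.5%, and AT1G72190, a hydroxyacid dehydrogenase, from 82.0% and 87.9% to 97.1% and 95.7%. Each of these 5 calls was lost without at least 2 of the C24 and Col-0 libraries, as was that of MIR162a, with adjusted p values of up to 0.37 over the alternatives.

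In Kro-0 the largest falls reached 0 reads of the proximal acceptor. ORP2A (AT4G22540), an oxysterol-binding protein-related gene, had 99.3% and 99.5% in Col-0 and 0 of 174 reads in Kro-0 at acceptors 68 nt apart on the 3′ side of the coding span, which allows 1.72%. The hybrid had 45.5% and 47.6% (edgeR adjusted p for Kro-0 = 2.4e-10). AT3G08650, a ZIP-family metal transporter, fell from 92.5% and 90.4% to 0 of 27 reads (limit 11.1%), while its hybrid had 83.7% and 63.2% (edgeR adjusted p for Kro-0 = 9.7e-07). AT1G53780_AT1G53785, an event whose name joins 2 genes so that its reads cannot be assigned to either, fell from 92.3% and 92.9% to 6.25% and 12.5%, and its hybrid, at 15.8% and 21.9%, lay beside Kro-0 (edgeR adjusted p for Kro-0 = 9.4e-06).

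AT1G14570, which encodes a UBX-domain protein, differed in both Kro-0 and Ler-1. Its acceptors, with the last 2 bases of the intron in capitals, are 63 nt apart (chr1:4985428-4985490), and the stretch between them is a multiple of 3 with no stop:
AT1G14570 proximal, chr1:4985403-4985432 (plus strand): ataattcacttgcatttgtgattAGggcta
AT1G14570 distal, chr1:4985466-4985495 (plus strand): ctttgattgctttccgtaacttcAGtgaag
Col-0 had 91.7% and 94.6%, Bur-0 94.9% and 95.9%, and C24 93.6% and 94.4%. Kro-0 had 27.8% and 24.8% and Ler-1 24.3% and 26.0%, and their hybrids with Col-0 had 58.5% and 61.7%, and 51.2% and 61.9%. The libraries fell into 3 levels that did not overlap: both accessions, their hybrids, and all others. This was the lowest p of any member among the 5 accessions (edgeR adjusted p = 4.5e-12; 1.8e-09 for Kro-0 and 1.9e-09 for Ler-1).

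UBQ7 (AT2G35635), a ubiquitin gene, used its proximal acceptor in 72 of 800 Kro-0 reads, with a PSI of 9.34% and 8.68%. In the Col-0 reference the acceptors are 78 nt apart and the stretch holds a stop in frame. The distance differs by 20 nt or more in the Kro-0 assembly, and the Kro-0 sequence was not read. The other groups had 0 reads at this proximal acceptor, out of 629 in Ler-1 to 1293 in Col-0. The hybrid Col-0 x Kro-0 also had 0, of 842, which allows 0.356% (edgeR adjusted p for Kro-0 = 2.2e-06). Ubiquitin genes have near-identical copies, and how reads that match several places were counted is not given in the sources used here. AT3G08840, a D-alanine ligase family gene with a skipped exon of 72 nt, fell from 98.2% and 98.3% to 54.1% and 48.4%, with its hybrid at 79.6% and 88.4% (edgeR adjusted p for Kro-0 = 3.6e-05). AT1G65270 fell from 35.7% and 53.8% to 11.8% and 6.58% and AT-P4H-1 (AT2G43080), a prolyl 4-hydroxylase, from 12.5% and 29.7% to 1.35% and 2.0%. AT1G03960, a calcium-binding EF-hand protein, rose from 0 of 72 reads to 22.7% and 17.6%, and ATSRL1 (AT5G37370), a PRP38-family splicing protein, from 16.7% and 12.6% to 34.4% and 32.3% (edgeR adjusted p of 0.0016 to 0.032 for these 4). AT1G65270 lost its call without Col-0 replicate 2, and AT-P4H-1 without that library or Kro-0 replicate 1. AT1G03960 lost its call without Kro-0 replicate 1 or either Col-0 library, and ATSRL1 whichever Kro-0 or Col-0 library was left out. Adjusted p values of these calls reached up to 0.19 over the alternatives.

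In Ler-1, PAT1 (AT5G48150), a GRAS regulator of phytochrome A signalling, led the rises. At its pair 305 nt apart on the 5′ side of the coding span Col-0 had 50% and 48.4%, Ler-1 98.3% and 98.6%, C24 80.5% and 73.8%, Bur-0 54.0% and 55.6%, and Kro-0 42.9% and 42.0%. Ler-1 lay above C24, and C24 above every other accession, without overlap (edgeR adjusted p against Col-0 of 6.9e-09 for Ler-1 and 0.0022 for C24, the latter 0.11 at most and lost without C24 replicate 1). The hybrid with Ler-1 had 78.9% and 70.3%. AT1G19715_AT1G19720, which joins 2 gene names, fell from 97.3% and 96.1% to 68.5% and 69.2% at acceptors 316 nt apart, and rose from 1.22% and 3.23% to 13.6% and 11.2% at acceptors 189 nt apart (edgeR adjusted p of 0.00055 and 0.041). MUG1 (AT3G04605), a gene derived from a Mutator-like transposase, fell from 91.9% and 90.1% to 66.2% and 65.5%. LIG1, the DNA ligase 1 gene, fell from 97.2% and 98.5% to 86.0% and 88.3%. AT3G15770 fell from 92.3% in both libraries to 45.5% and 61.5%, and AT5G21222, a protein kinase, from 15.9% and 2.86% to 0 of 173 reads, while EMB2768, a tyrosyl-tRNA synthetase, rose from 0 of 118 reads to 10.8% and 6.76% (edgeR adjusted p of 0.0029 to 0.04 for these 5). Apart from MUG1 these calls, and that of AT1G19715_AT1G19720 at 189 nt, were lost when single libraries were left out, with adjusted p values of up to 0.54 over the alternatives. LIG1, AT3G15770 and AT1G19715_AT1G19720 at 189 nt lost the call whichever Ler-1 or Col-0 library was left out. AT5G21222 lost it without Col-0 replicate 1 or either Ler-1 library, and EMB2768 without Ler-1 replicate 1 or either Col-0 library.

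**Figure D3:**
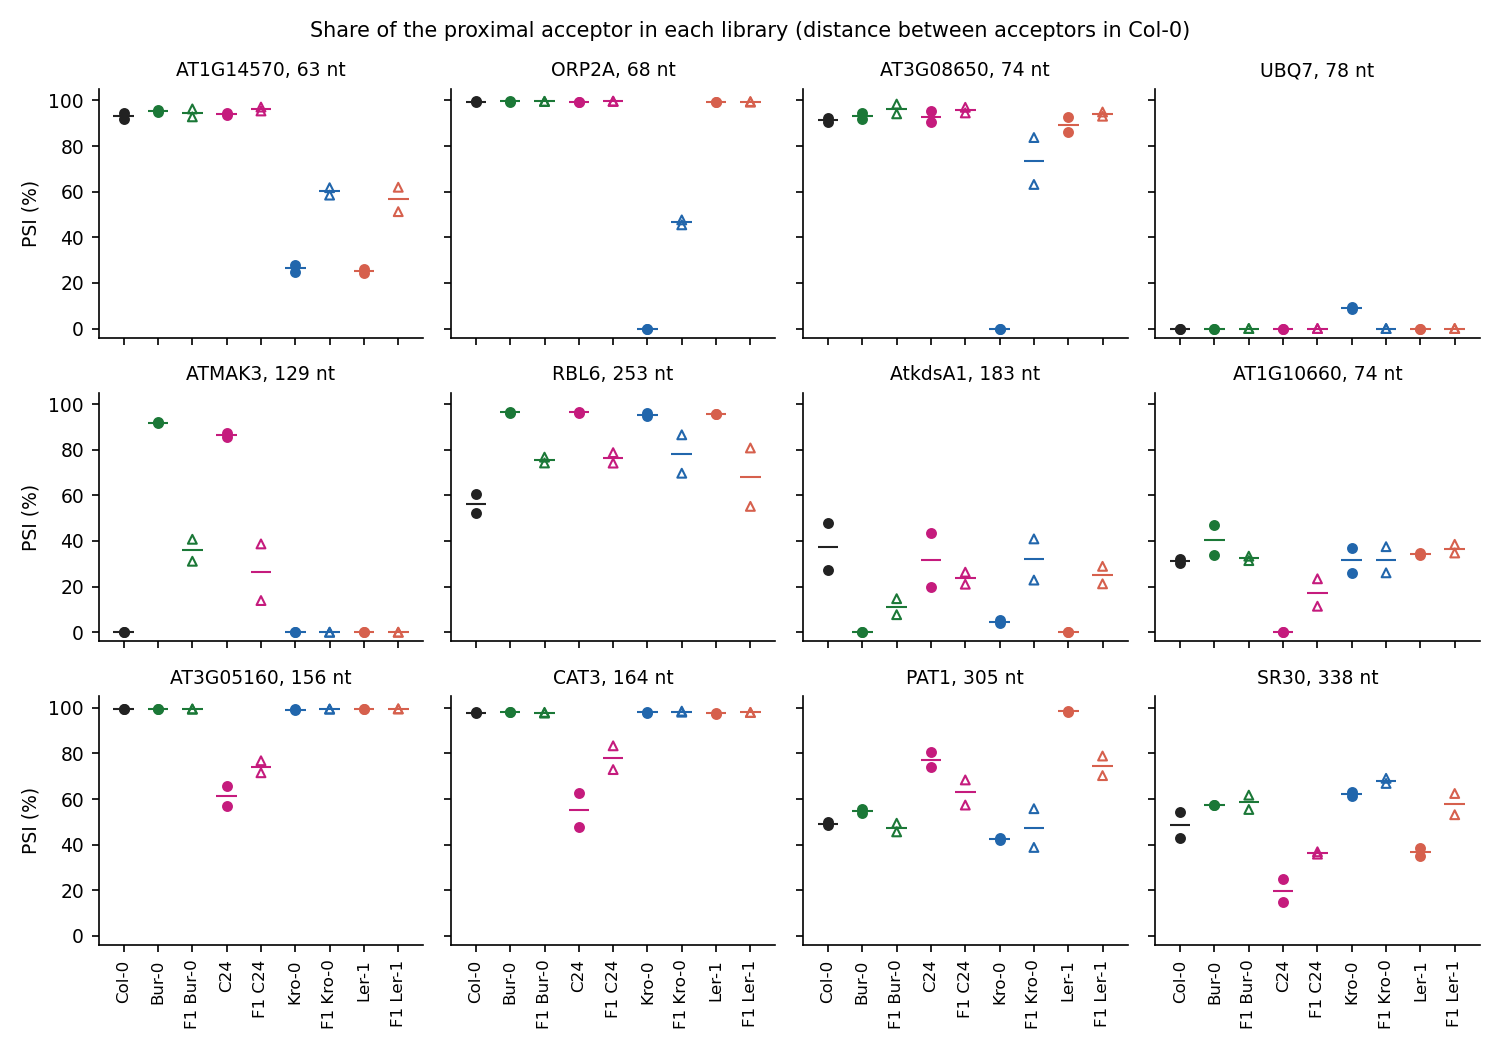
PSI in percent of 12 members in each of the 18 libraries (filled circles for accessions, open triangles for the F1 hybrids with Col-0, short lines for the mean of 2 libraries). In AT1G14570 and ORP2A the hybrids sit between their parents, at 51.2% to 61.9% and at 45.5% and 47.6%, while UBQ7 is above 0 in Kro-0 alone.

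Several members set Col-0 apart from most other accessions. RBL6 (AT1G12750), a rhomboid-like protease, had 52.2% and 60.7% in Col-0 at acceptors 253 nt apart. All reads of the other accessions were proximal, with a PSI of 94.7% to 96.7% in their 8 libraries, and the 4 hybrids had 55.2% to 86.5% (edgeR adjusted p of 0.00059, 0.00062, 0.0023 and 0.0016 for Bur-0, C24, Kro-0 and Ler-1). AtkdsA1 (AT1G79500), a synthase of the cell wall sugar KDO, had 27.1% and 47.7% in Col-0 and 43.5% and 20% in C24, which overlapped. Bur-0 had 0 of 167 reads, Ler-1 0 of 75, and Kro-0 4.0% and 5.26% (edgeR adjusted p of 2.2e-05, 0.00046 and 0.032, the last lost without either Kro-0 library or Col-0 replicate 2). AT3G62370, a heme-binding protein, AT4G02120, a CTP synthase, and MPK15, a mitogen-activated protein kinase, had 87.7% to 95.6% in their Col-0 libraries. AT3G62370 was called higher in all 4 other accessions, and AT4G02120 and MPK15 in Bur-0, Kro-0 and Ler-1, with edgeR adjusted p values from 0.0035 to 0.048. Except for AT4G02120 in Ler-1, each of these calls was lost without one or another library of the groups compared, with adjusted p values of up to 0.31 over the alternatives.

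Tested for any difference among the 5 accessions, 138 of 599 members were called (23%, in 121 genes), beside 19.8% of all events. The median range of their accession means was 9.09 points, and 66 had a range of 10 points or more. The accession farthest from the median of the 5 was Bur-0 in 37 members and C24 in another 37, Col-0 in 24, Ler-1 in 22 and Kro-0 in 18. Of the Alt3 events with acceptors 13 to 60 nt apart 15.3% were called, and of those 12 nt or less apart 11.4%. Without Bur-0 replicate 1 or 2 the count of members was 88 or 87, and limma on PSI called 76.

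By the place of the stretch, the share called was as follows, as a description: 9 of 19 on the 3′ side of the coding span (47.4%), 24 of 75 on the 5′ side (32.0%) and 97 of 472 within it (20.6%). The median reads of these members were 83.5, 77.5 and 103.0 per library. Some of the 19 on the 3′ side are pairs of a single gene, AT1G52510. Members of a gene can share reads, so these shares do not count independent events. A stop in the stretch went with no such difference in the share called, with 34 of 171 (19.9%) against 50 of 250 (20%). Over all 598 members with full depth, called or not, the range over accessions had a median of 5.35 points, against 6.54 for all events. It was under 5 points in 281 and over 20 points in 62.

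The accessions' lists name each event by coordinates of the accession's own assembly, so the acceptor distance could be read there too. It differed from that of Col-0 at 96 members for Bur-0, 102 for C24, 80 for Kro-0 and 88 for Ler-1, in most of them by 3 nt or less (58, 56, 49 and 59). The share called was higher among the members with a differing distance in each comparison. The counts were 25 of 86 (29.1%) against 45 of 538 (8.36%) in Bur-0, and 10 of 85 (11.8%) against 26 of 532 (4.89%) in C24. They were 9 of 71 (12.7%) against 22 of 549 (4.01%) in Kro-0, and 20 of 80 (25%) against 25 of 554 (4.51%) in Ler-1. These shares are given as a description, without a test. Members of a gene can share reads, so the shares do not count independent events. The same shares are not given for other events, so they are not shown to be particular to distant acceptors. ORP2A was 27 nt apart in Kro-0 against 68 nt in Col-0, and UBQ7 33 nt against 78 nt. RBL6 was 317 nt apart in Bur-0 and Ler-1 and 292 nt in C24, against 253 nt in Col-0. AT5G21222 was 286 nt apart in Ler-1 against 330 nt.

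Of 34 splicing factor genes on a list of SR proteins, U2AF subunits and related factors, 18 had members, 23 in all, of which 10 skip an exon. Of the 17 that could be read in frame, 13 keep a stop codon with the proximal acceptor. The median of their mean PSI was 12.6%, beside 68% for all members, and they ran from 3.23% in SCL30 to 98.0% in PTB3. By edgeR 0 of 21 tested were called in Bur-0 and 0 of 21 in Kro-0, beside 8.95% and 5.19% of all events. There 2 and 3 had an unadjusted p under 0.05, limma on PSI called 1 and 0, and DESeq2 and limma on the log2 odds called 0 in both. These counts hold for the list only. It does not include AT5G09880 and ATSRL1, given above with splicing annotations and called in Bur-0 and in Kro-0. In C24 1 of 21 was called, lower (6.02% of all events), and in Ler-1 2 of 21, both lower (6.97% of all events), while 4 of 21 differed among the accessions (19.8% of all events). SR30 (AT1G09140), an SR protein, held the member called in C24. Its acceptors are 338 nt apart (chr1:2943227-2943564), with the last 2 bases of the intron in capitals:
SR30 proximal, chr1:2943560-2943589 (minus strand): ttgtattgcgttgtttgttttctAGatctg
SR30 distal, chr1:2943222-2943251 (minus strand): catggggtttttggtcttgctgcAGgtccc
SR30 had its lowest PSI in C24, with 25% and 14.8%, followed by Ler-1 with 34.8% and 38.7%. Col-0 had 42.7% and 54.4%, Bur-0 57.2% and 57.5%, and Kro-0 61.4% and 63.2%. C24 lay below all other accessions and Ler-1 below the remaining ones (edgeR adjusted p for C24 = 0.0022, and 7e-05 among the accessions). Without C24 replicate 2 or Col-0 replicate 2 the call for C24 was lost, with an adjusted p of up to 0.13 over the alternatives.

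SR34 (AT1G02840), an SR protein of the SF2/ASF type, had 3 members among its acceptors. At the pair 511 nt apart it fell from 10.3% and 13% in Col-0 to 3.88% and 5.37% in Ler-1, and at the pair 353 nt apart from 6.01% and 8.71% to 2.94% and 2.08% (edgeR adjusted p of 0.034 and 0.044). Both calls were lost without any of the Col-0 or Ler-1 libraries in turn, with an adjusted p of up to 0.27. The pair 158 nt apart had 63% and 60% in Col-0 and 43.5% in both Kro-0 libraries, and was not called. RS31 (AT3G61860) had 9.68% and 13.4% in Bur-0 and 1.47% to 4.92% in every other accession library (edgeR adjusted p among accessions = 0.042, and up to 0.31 over the alternatives). U2AF65A (AT4G36690), the pyrimidine-binding U2AF subunit, had 35.9% and 55% in Col-0 and 35.6% to 63.5% over all accessions, and was not called. The 2 members of SR34b had under 10 reads in several libraries.

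**Figure D4:**
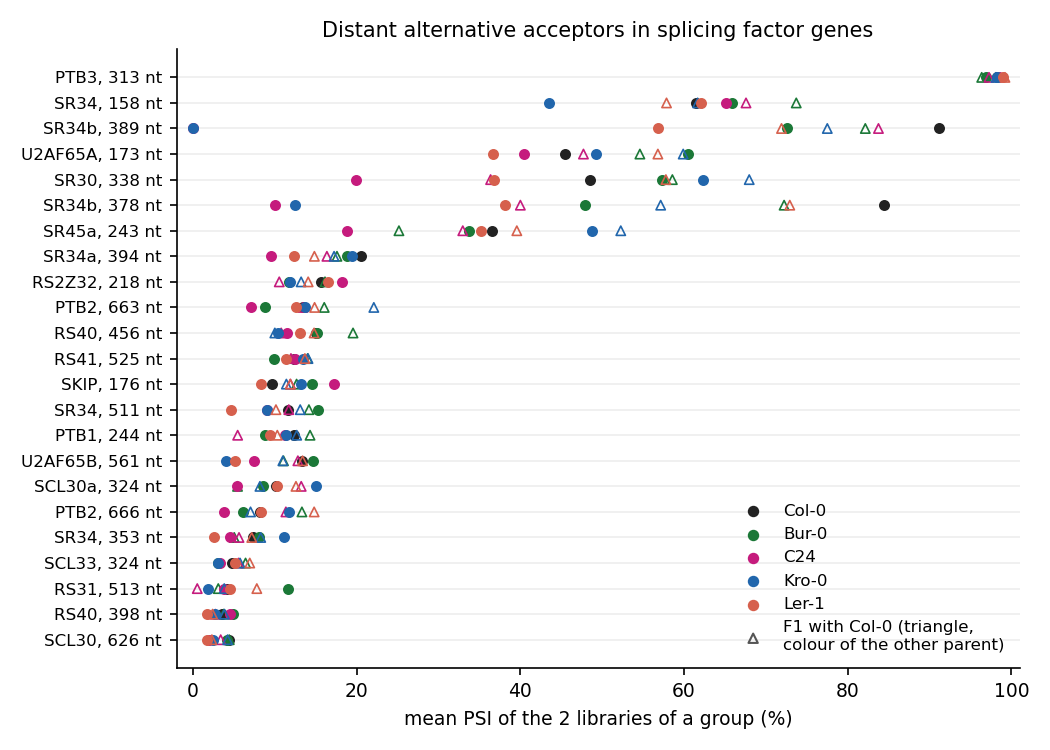
Mean PSI in percent of the 2 libraries of each group (circles for accessions, triangles for the F1 hybrids with Col-0 in the colour of the other parent) for the 23 members in splicing factor genes, ordered by their mean. Most lie under 20%, SR30 runs from 19.9% in C24 to over 60% in Kro-0, and the 2 SR34b rows rest on few reads.

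On the list of 16 clock genes only PRR7 and ELF3 had members, 6 in all. PRR7 (AT5G02810), a repressor of the morning loop of the clock, had a PSI of 18.3% and 15.2% in Col-0 and 12.4% to 20.5% over all accession libraries at acceptors 209 nt apart, with a stop in frame. The 5 members of ELF3 (AT2G25930), part of the evening complex, used 3 proximal acceptors and had means of 1.07% to 15.0%, the highest of them on 4 Col-0 reads. P5CS1 (AT2G39800), the rate-limiting enzyme of proline synthesis, was the only member of 11 abiotic stress genes: its longer form skips an exon of 104 nt, and its PSI was 95.5% and 96.7% in Col-0 and 96.7% over all groups. LHCB6 (AT1G15820), a minor antenna protein of photosystem II, was the only member of 5 photosynthesis genes. Its proximal acceptor was used in 0.0184% and 0.00732% of 49101 Col-0 reads. The lists for flowering (13 genes), nonsense-mediated decay (4 genes) and immunity (6 genes) held no member.

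Each hybrid was compared with the mean of its parents, by edgeR in log odds, the logarithm of proximal over distal reads. A mean of log odds is not a mean of PSI, and it runs to extremes where a parent has 0 reads of a form. Of the methods used, only limma on PSI compared a hybrid with the mean PSI of its parents. By edgeR no member was called of 620, 617, 617 and 629 tested in the hybrids of Col-0 with Bur-0, C24, Kro-0 and Ler-1, while 0.098%, 0.0597%, 0.0795% and 0.137% of all events were. At an unadjusted p under 0.05 there were 47, 42, 39 and 57 members (7.58%, 6.81%, 6.32% and 9.06%, beside 6.47%, 7.35%, 7.26% and 7.87% of all events). DESeq2 called 0, 1, 0 and 1 members, limma on PSI 2, 0, 5 and 0, and limma on the log2 odds 2, 1, 2 and 1. The lowest edgeR adjusted p values were 0.294 in emb1211, 0.0519 in AT3G05160 (156 nt), 0.145 in AT3G05160 (489 nt), and 0.111 in SHM1, a mitochondrial serine hydroxymethyltransferase.

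The hybrids lay between their parents, or level with a parent, at most of the members called between those parents. The counts were 67 of 70 with Bur-0, 35 of 36 with C24, 31 of 31 with Kro-0 and 41 of 45 with Ler-1. Among members with parents at least 10 points apart the counts were 27 of 28, 19 of 20, 14 of 14 and 15 of 15. Level hybrids are included: in Col-0 x Kro-0, AT1G03960 (129 nt) had a PSI of 0% in the hybrid and in Col-0, as did UBQ7. The hybrid stood at a median of 46.8%, 44.1%, 50.6% and 50.4% of the way from Col-0 to the other parent. The quartiles were 31.9% and 65% with Bur-0, 33.4% and 50% with C24, 30.1% and 60.9% with Kro-0, and 35.2% and 55.1% with Ler-1. Since the members were chosen here by a difference between parents, these counts describe them and are no test.

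A few hybrids stood away from the middle in PSI. In ATG8E the hybrid had 80.4% and 85.1%, near Col-0, and limma on PSI called it in Col-0 x Bur-0 together with a member of PAT1 316 nt apart. In Col-0 x Kro-0 limma on PSI called AT1G53780_AT1G53785, which lay beside Kro-0, and AT3G08650 and UBQ7, which lay beside Col-0. It also called ORP2A and ABCG7, an ABC transporter. The hybrid of ORP2A lay near the middle of its parents in PSI.

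**Figure D5:**
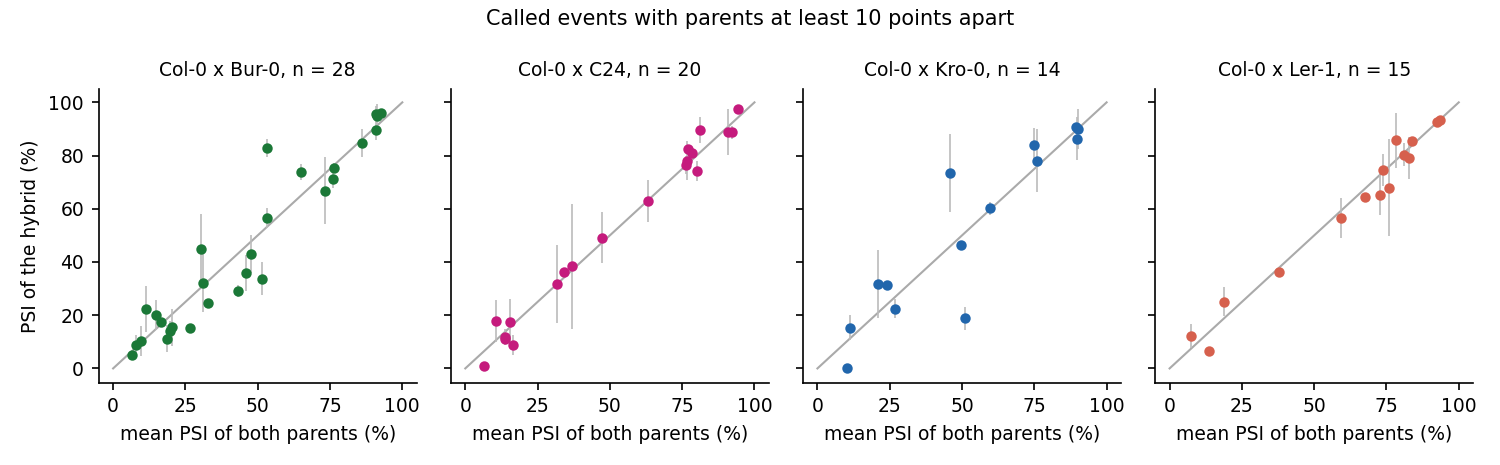
PSI of each hybrid against the mean PSI of its parents, both in percent, for called members whose parents differ by at least 10 points (n = 28, 20, 14 and 15); points are means of 2 libraries, bars are their SD, and the grey line marks equality. Most points lie along the line, and the points far from it in Col-0 x Kro-0 are AT3G08650, above, and AT1G53780_AT1G53785, below.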

How the data were processed

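PolyA RNA of 18 libraries (9 groups of 2) was sequenced after cDNA synthesis with random hexamers, per the labels' protocols. The submitters' processing notes name TAIR10, HISAT2 and edgeR 3.0.8; the counting rule, filters and use of strand are not given in the sources used here, so reads of a gene and an antisense partner cannot be told apart. Each deposited count is the number of reads of 1 of the 2 forms of an event, and the authors' deposited fraction (PSI) equals the second count over both counts plus 1.

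From these files the 5403 events common to all lists were tested on counts with the edgeR quasi-likelihood test (edgeR 4.0.16, R 4.3.3), with 1 term per library and 1 per form and group, at least 10 reads in each compared library and Benjamini-Hochberg adjustment over all events tested. The 10 accession libraries shared 1 fit, and all 18 libraries shared the fit of the hybrids. In that fit the mean of the parents was taken in log odds. The TAIR10.1 RefSeq genome gave the chromosome coordinates, annotation and sequences; all 700 members had GT at the donor there, and 6 were listed on the strand opposite to that of their splice site letters.

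A member was named, per comparison, if among the 8 largest rises or falls in mean PSI of called members without overlap, 1 per gene; in addition by the lowest p among accessions, depth at a middle PSI, distance, or membership of the lists of splicing factors, clock, flowering, abiotic stress, photosynthesis, nonsense-mediated decay and immunity. The rule for the members uses event names alone, but it and the lists were chosen with earlier results of these data known. DESeq2 (1.42.0) and limma (3.58.1; PSI, or log2 odds with a pseudocount of 0.5) were alternatives, beside read minimums of 20 and 1, TMM scaling, separate fits, a replicate block and leaving out each library. The scripts were tested on simulated data. With 2 libraries a group, no exact permutation test of an accession against Col-0 could reach 0.05. The p-values of all tests rest on the fit across events. Limits for a count of 0 are 3 reads of the total and cover counting error only, since reads carry no molecular identifiers. No library pair agreed within sampling noise. The Col-0 pair, the base of every comparison with an accession, agreed least, with a chi-square per event of 6.59. It was 1.43 to 1.69 in the other accessions and 1.86 to 3.06 in the hybrids. Figures were drawn with matplotlib 3.10.9.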

Additional observations from a re-analysis of the deposited data

How the results depend on the processing

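In the comparisons with Col-0 the direction of every named difference held in the alternatives run. Of the calls counted next, 50 belong to the test among the 5 accessions, which has no direction, so they could not reverse. Of 129 calls of named members, with 1788 alternative values, 1479 kept the call, 309 lost it and 0 reversed. Leaving out a library lost 207 of 816 values. Where counts of called members moved by more than 1.5 times the values were as follows, and the cause was not tested except that leaving out a library or fitting only the libraries compared takes samples away. In Bur-0 limma on PSI called 39 and the fit of only the libraries compared 45, against 70. In Kro-0 DESeq2 called 19 and the fit of only the libraries compared 20, against 31. In Ler-1 DESeq2 called 26, limma on PSI 24 and the fit of only the libraries compared 25, against 45. For any difference among accessions limma on PSI called 76, against 138. Leaving out each library gave 31 to 46 calls in Bur-0, 16 to 18 in C24, 17 to 20 in Kro-0, 16 to 25 in Ler-1 and 87 to 142 among accessions.

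Against 0 members called in each hybrid, limma on PSI gave 2 with Bur-0 and 5 with Kro-0, limma on the log2 odds 2, 1, 2 and 1 (Bur-0, C24, Kro-0 and Ler-1), DESeq2 1 each with C24 and Ler-1, and the fit of only the libraries compared 1 with C24. Leaving out a library gave 0 in each. The labels give no shared batch behind a replicate number. Over 36 pairs of groups the correlation of the differences between replicates ran from -0.127 to 0.254. It was over 0.1 in 12, among them Col-0 with each of the 4 hybrids, and under -0.1 in 2. Replicates of the same number thus moved together in part of the pairs. The main tests did not take the numbers as pairs and leave this out. With the number as a replicate block, counts were 70, 38, 31 and 43 in Bur-0, C24, Kro-0 and Ler-1, 143 among accessions and 0, 1, 0 and 1 in the hybrids, and 4 of the named calls were lost. A crossed replicate block for Ler-1, chosen after seeing the data, gave 47.

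The median PSI of the members moved by more than the spread between libraries as follows. As a plain share of reads it was 69.9% in Bur-0, 65.7% in C24 and 67.6% in Ler-1, and 74.1%, 70.0% and 70.5% in the hybrids with Bur-0, Kro-0 and Ler-1. With at least 20 reads (504 members) it was 72.4% in Col-0, 73.4% in Bur-0, and 73.8%, 69.1% and 70.2% in those hybrids. With at least 1 read (673 members) it was 63.7%, 60.5%, 59.1%, 58.7% and 60.9% in Col-0, Bur-0, C24, Kro-0 and Ler-1, and 61.6%, 62.7%, 61.7% and 61.7% in their hybrids. Single libraries gave 69.0% to 70.9% in Col-0, 68.9% to 69.7% in Bur-0, 64.3% to 65.9% in C24, 63% to 65.7% in Kro-0 and 65.5% to 68.6% in Ler-1. In the hybrids they gave 72.0% to 72.5%, 68.7% to 71.6%, 67.9% to 68.7% and 66.0% to 67.9%. Depth limits the members with few reads: 102 had under 10 reads in some library, and 48 had a median under 10.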

Other observations

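The members with the largest distances after AT3G61690 were MMH-1_AT1G52510 and AT2G44710. AT2G44710, which encodes an RNA-binding protein with RRM motifs, has acceptors 1345 nt apart and had a PSI of 87.1% and 81.2% in Col-0. The values were 90% and 85.4% for Ler-1, 75.5% and 85.5% for Kro-0, 79.2% and 78.8% for C24, and 76.1% and 70.8% for Bur-0, and it was not called among the accessions (edgeR adjusted p = 0.3). The event MMH-1_AT1G52510, whose name joins the DNA glycosylase gene MMH-1 to the next gene, has acceptors 1514 nt apart and had 97.4% and 97.9% in Col-0 on 1038 reads. C24 was lowest there, at 94.6% and 96.5%, and Kro-0 highest, at 99.4% and 99.0% (edgeR adjusted p among accessions = 0.037, up to 0.2 over the alternatives). AT3G61690 itself had 89.1% and 87.3% in Ler-1 and 97.6% and 97.2% in Bur-0, with an edgeR adjusted p among accessions of 0.037 and up to 0.14 over the alternatives.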
